A study of Danio rerio with 13 samples.

Results

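Hearts of zebrafish embryos injected with a morpholino against atg5 were compared with hearts of all control embryos. The comparison takes 8 of the 13 arrays of the study, 3 from atg5 morpholino embryos and 5 from controls, and covers all 15502 probe sets that are not manufacturer controls. The controls were 3 arrays from uninjected embryos and 2 from embryos injected with a control morpholino, taken as 1 group. The other 5 arrays, 3 becn1 and 2 atg7 morpholino arrays, entered the estimate of the spread and 1 direct comparison. All embryos were 3 days old, all injections were made at the 1-cell stage, and each array held labelled total RNA from purified hearts, per the labels' protocols. The tissue label and the treatment protocol name hearts, whereas the extraction protocol speaks of tumors. No genotype, strain, morpholino sequence or number of hearts per sample was given in the sources used here. The labels call the samples biological replicates, so the p-values measure the spread between these heart preparations.

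A morpholino is an antisense oligonucleotide that binds an RNA in the embryo and stops it from being translated or correctly spliced, a knockdown that need not lower the level of the RNA. Autophagy encloses cytoplasm in a double membrane and delivers it to the lysosome. The Atg5 protein is joined to Atg12, and this conjugate helps attach proteins of the LC3 and GABARAP family to lipid in the growing membrane. The becn1 product acts in the lipid kinase complex that starts the membrane, and the atg7 product activates both conjugation systems.

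In this text a level is the log2 of the quantile-normalized intensity of a probe set, and a difference is the mean level of the atg5 arrays minus the mean level of the 5 control arrays. Each standard error (SE) and adjusted p comes from limma, fitted to all probe sets, with Benjamini-Hochberg adjustment. A difference was called at an adjusted p under 0.05. Levels under 4, an intensity of 16, are weak signals whose differences have no exact size. The 8 arrays correlated with each other at r = 0.934 to 0.964 over all probe sets. The array atg5 1 stood somewhat apart, with the lowest mean correlation of the 8 (0.944). Median deposited intensities of the 8 arrays ran from 32.4 to 65.4. The ratio of 3' to 5' signal of the gapdh control probe sets ran from 2.33 to 2.99 on the controls and was 2.67, 3.28 and 3.07 on the atg5 arrays. On the becn1 arrays and atg7 1 it ran from 2.3 to 2.65, and on atg7 2 it was 5.98. The same ratio of the acta1 control probe sets was 86.2 on atg7 2 and 8.03 to 29.9 on all other arrays. The part of these ratios in the results was not tested.

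The named markers of heart muscle with a probe set, myl7, tnnt2a and cmlc1, were above 16 on all 8 arrays. So were markers of other tissues that the preparations could hold, among them elavl3 of neurons, krt4 of skin, apoa2 of liver and yolk, mylpfa of trunk muscle and gnat2 of cone photoreceptors. Several heart transcription factors gave little signal. On all 8 arrays tbx5a, tbx20 and gata4 lay under 16, and nkx2.5 did so on 7 of them.

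No probe set passed the test between atg5 morphant and control hearts. Of 15502 probe sets 0 (0%) were called, and the smallest adjusted p was 0.361. The gene lists below were chosen with earlier results of these data known, so they are described and not tested. An uneven spread of differences over them can follow from that choice. Genes of cone photoreceptors, trunk muscle, skin, liver and yolk, and collagens were mostly lower in atg5 hearts, and proteasome subunits were mostly higher. The trunk muscle medians by array, -0.77 to -0.35 on the atg5 arrays, lay inside the control range of -0.80 to 0.72. Against control morpholino hearts alone the median differences of the skin and proteasome lists were -0.08 and 0.05. On atg5 1 the medians of the extracellular matrix list and the liver and yolk list were above 0, at 0.04 and 0.30. At an unadjusted p under 0.05 there were 1239 probe sets (7.99%), 656 higher (4.23%) and 583 lower (3.76%). Over all probe sets 52.5% of the differences were above 0 and 47.5% below. The 3 atg5 arrays all lay above the 5 control arrays at 639 probe sets (4.12%) and all below them at 395 (2.55%). Among the 9713 probe sets at or above 16 on all 8 arrays, 10 were higher by more than 1 and 75 were lower by more than 1. The median SE over these 9713 probe sets was 0.22.

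Against the uninjected arrays alone 0 probe sets (0%) were called, with a smallest adjusted p of 0.403, and 1554 (10%) had an unadjusted p under 0.05. Against the 2 control morpholino arrays alone 0 (0%) were called, with a smallest adjusted p of 1, and 474 (3.06%) had an unadjusted p under 0.05. The second comparison has fewer arrays and less precision, and the 2 share the atg5 arrays.

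The atg5 gene itself has 2 probe sets on the array. At the brighter one the atg5 arrays read 8.24, 8.26 and 8.14, the uninjected arrays 8.18, 7.95 and 7.97, and the control morpholino arrays 8.22 and 7.87. The atg5 arrays overlapped the controls, and the difference was 0.18 (SE 0.13, adjusted p = 0.715). At the second probe set the difference was 0.08 (SE 0.19, adjusted p = 0.938). A morpholino may leave the level of its target RNA as it was, so these values do not check the knockdown. No probe set was named for becn1 or atg7.

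Autophagy genes differed little as groups. Of 15 genes that start autophagosomes, 8 were higher and 7 lower, with a median difference of 0.03. Of 7 conjugation genes, atg5 itself among them, 5 were higher, atg5 included, and 2 lower, with a median of 0.09. Of 17 receptors and regulators, 6 were higher and 11 lower, with a median of -0.03, and of 37 lysosome genes, 21 were higher and 16 lower, with a median of 0.02. The median over all 8793 named genes was 0.04, and 55.2% of them were higher. None of these genes was called. The gene nearest to a call among the conjugation genes was map1lc3b, which encodes an LC3 protein. It read 8.38, 8.34 and 8.59 on the atg5 arrays and 7.94 to 8.34 on the controls, a difference of 0.32 (SE 0.15, adjusted p = 0.626). Among the lysosome genes, lamp1a, a membrane protein of the lysosome, read 8.04, 8.29 and 8.0 against 8.26 to 8.65 in the controls, a difference of -0.39 (SE 0.15, adjusted p = 0.614). In both genes the groups touched or overlapped.

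Of the gene lists, retina and lens had the largest share of members with every atg5 array below every control. Vision begins when an opsin activates the G protein transducin, which releases the phosphodiesterase PDE6 from its inhibitory subunit. Of 36 genes listed for retina and lens and present on the array, 31 were lower and 5 higher, with a median difference of -0.63. For 10 of the 36 (27.8%) every atg5 array lay below every control array, against 2.54% of all named genes. No gene of the list was called. At an unadjusted p under 0.05, 8 of the 36 were lower, against 3.76% of all probe sets. In the fit of the 8 compared arrays alone, 14 of the 36 were, against 4.46% of all probe sets, and 0 of them passed after adjustment. In bulk samples, fewer cells of a type and less RNA per cell cannot be told apart.

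The inhibitory PDE6 subunit gene pde6hb was among the 12 lower genes named by rank. It read 5.13, 6.48 and 5.99 on the atg5 arrays. The uninjected arrays read 8.88, 7.14 and 8.77 and the control morpholino arrays 7.83 and 7.68. All 3 atg5 arrays were below the lowest control, and the difference was -2.19 (SE 0.53, adjusted p = 0.614), a 4.58-fold lower geometric mean. The catalytic subunit pde6c read 5.12, 5.97 and 6.0 against 6.70 to 8.45 in the controls, a difference of -1.99 (SE 0.57, adjusted p = 0.614). Recoverin gene rcvrn3, a calcium sensor of photoreceptors, read 4.49, 5.50 and 5.29 against 5.95 to 6.94, a difference of -1.34 (SE 0.37). The transducin beta subunit gnb3b read 7.01, 7.63 and 7.36 against 8.03 to 9.26, a difference of -1.31 (SE 0.41). In all 4 genes the array atg5 1 was the lowest of the 8.

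The other 6 of the 10 genes were picked out after their values were seen. They were the cone opsins opn1sw1, opn1sw2 and opn1mw1, the cone transducin subunits gnat2 and gngt2b, and phosducin pdcb, which binds transducin. The ultraviolet cone opsin opn1sw1 read 7.57, 7.69 and 7.72 on the atg5 arrays and 10.29, 8.74, 9.84, 9.38 and 9.16 on the controls, a difference of -1.82. Its SE was 1.42 with all 13 arrays, among which the becn1 and atg7 arrays ran from -1.05 to 7.51, and 0.28 with the 8 compared arrays, where its adjusted p was 0.159. The blue cone opsin opn1sw2 differed by -1.57 and the green cone opsin opn1mw1 by -1.72. The differences were -1.62 for gnat2, -1.49 for pdcb and -0.95 for gngt2b. In all 6 genes the atg5 arrays lay below the controls.

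Not all genes of the eye were clearly lower. The photoreceptor transcription factor crx read 7.26, 9.01 and 8.91 on the atg5 arrays and 8.02 to 8.96 on the controls, a difference of -0.04 (SE 0.61). For nr2e3, a transcription factor of photoreceptors, the difference was 0.13 (SE 0.41), and for the bipolar cell transcription factor vsx1 it was -0.08 (SE 0.59). In crx, nr2e3 and vsx1 alike atg5 1 was below all other arrays of the 8, while atg5 2 lay above the highest control. The lens crystallin genes cryba4 and crybb1 differed by -0.24 and -0.08, and there atg5 1 was the highest of the atg5 arrays. The rod transducin subunit gngt1 differed by -0.26, with levels of 8.48, 8.62 and 8.79 inside the control range of 8.20 to 9.43. The summed intensity of the whole list ran from 9810 to 11700 on the atg5 arrays and from 11600 to 22100 on the controls.

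**Figure D1:**
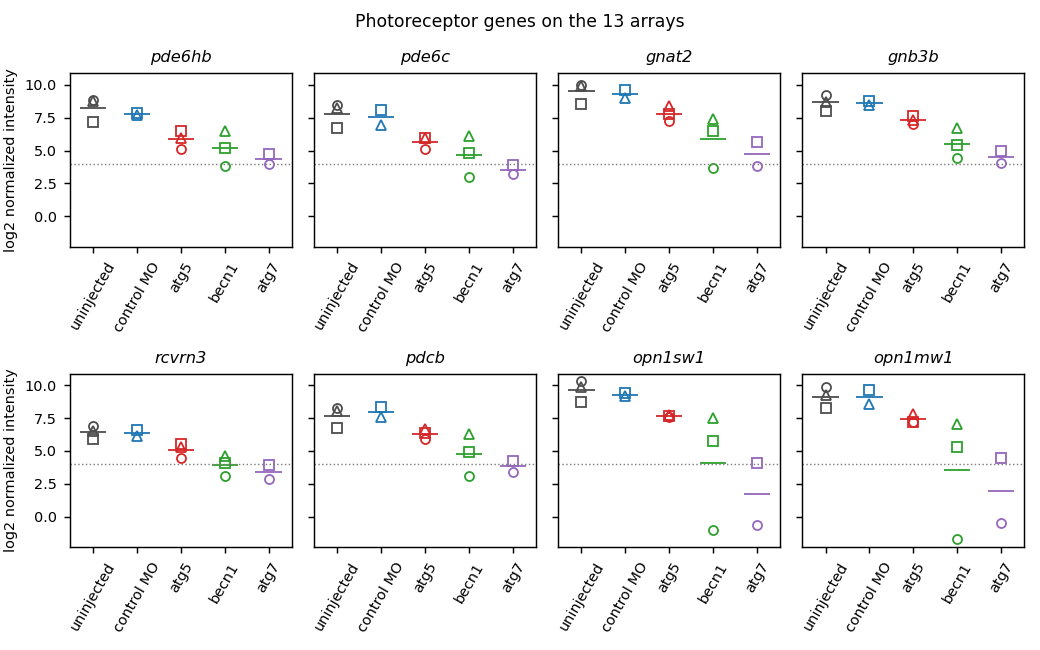
Levels (log2 normalized intensity, vertical axes) of 8 cone photoreceptor genes on the 13 arrays, by group. Each symbol is 1 array (circle, square and triangle for replicates 1, 2 and 3), short lines are group means, and the dotted line marks an intensity of 16. The 8 genes were taken from the 10 of the retina and lens list whose atg5 arrays all lie below the controls. That lack of overlap thus follows from the choice. In each gene the atg5 mean lies above the becn1 and atg7 means.

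The becn1 and atg7 arrays were set against the same 5 controls, so their values share those controls with the atg5 values. For pde6hb the differences from controls were -2.19 in atg5, -2.89 in becn1 and -3.67 in atg7. For gnat2 they were -1.62, -3.58 and -4.67, and for gnb3b -1.31, -3.10 and -4.16. The median over the list was -0.63 in atg5, -1.70 in becn1 and -1.84 in atg7. The direct comparison of atg5 with the mean of becn1 and atg7, which uses no control array, gave 0 called probe sets of 15502 (0%) and a smallest adjusted p of 0.2, and 1612 (10.4%) had an unadjusted p under 0.05. In it gnb3b was higher in atg5 by 2.32 (SE 0.41, adjusted p = 0.2) and gngt1 by 1.64 (SE 0.34, adjusted p = 0.223). Both genes were named by rank among those with the 3 atg5 arrays above all 5 other morphant arrays, so that lack of overlap follows from the choice. Without becn1 3, gnb3b was called in this comparison, with a difference of 2.62 (adjusted p = 0.0117). It was called under no other alternative. At gnb3b becn1 3 read 6.73, the highest of the becn1 and atg7 arrays and so the nearest to the atg5 arrays.

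Genes of trunk muscle were also mostly lower. Of 34 listed genes on the array, 30 were lower and 4 higher, with a median difference of -0.70. At 4 of them (11.8%, against 2.54% of all named genes) the atg5 arrays lay below all controls, and at 1 (2.94%, against 5.16%) above. The list median by array ran from -0.77 to -0.35 on the atg5 arrays, inside the control range of -0.80 to 0.72. The markers mylpfa, ckma and tnnt3b overlapped the controls. The slow muscle myosin heavy chain smyhc1 read 5.00, 5.48 and 5.21 on the atg5 arrays. The uninjected arrays read 8.53, 5.60 and 6.91 and the control morpholino arrays 7.48 and 6.11, a difference of -1.69 (SE 0.48, adjusted p = 0.614). The atg5 arrays were close together while the controls spread widely, with uninjected 1 the highest. For actc1b, an actin of muscle, the atg5 arrays read 11.51, 11.75 and 11.47 against 11.84 to 12.73, a difference of -0.73 (SE 0.27). The myosin light chain gene myl13 differed by -0.70 (SE 0.24). The median difference of the list was -0.91 against uninjected hearts and -0.38 against control morpholino hearts. Its summed intensity ran from 10400 to 12700 on the atg5 arrays and from 11600 to 30700 on the controls, so the groups overlapped.

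Collagen and other extracellular matrix genes were lower on 2 of the 3 atg5 arrays as a group. Of 41 genes, 32 were lower and 9 higher, with a median of -0.31, and 5 (12.2%, against 2.54% of all named genes) lay below all controls. The type I collagen chain col1a2 had the smallest p of the list. It read 10.10, 9.80 and 9.87 on the atg5 arrays, 10.96, 10.61 and 10.92 on the uninjected arrays, and 10.62 and 10.63 on the control morpholino arrays. The groups did not overlap, and the difference was -0.83 (SE 0.15, adjusted p = 0.361). A second, dimmer probe set of col1a2 read 8.04, 7.29 and 7.12 against 7.49 to 7.90, with atg5 1 the highest of the 8 arrays, and differed by -0.31 (SE 0.25). The fibrillar collagen col11a1a of cartilage differed by -0.76 (SE 0.23), the proteoglycan decorin gene dcn by -0.48 (SE 0.14), and col10a1a by -1.14 (SE 0.36). At each of these 3 genes the atg5 arrays lay below the controls. The list median by array was 0.04 on atg5 1, -0.42 on atg5 2 and -0.39 on atg5 3. Without atg5 2 it was -0.15, and against control morpholino hearts alone it was also -0.15.

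Of 38 skin genes, 27 were lower and 11 higher, with a median of -0.19, and 7 (18.4%, against 2.54% of all named genes) lay below all controls. The median was -0.26 against uninjected and -0.08 against control morpholino hearts. The keratin krt97 read 10.85, 10.73 and 10.56 on the atg5 arrays, 11.58, 11.53 and 11.47 on the uninjected arrays, and 10.99 and 11.16 on the control morpholino arrays. The atg5 arrays were the lowest, the control morpholino arrays lay between, and the uninjected arrays were the highest. The difference was -0.63 (SE 0.16, adjusted p = 0.614) from all controls, -0.82 from uninjected and -0.36 from control morpholino hearts. The plakophilin pkp1b, a desmosome protein, differed by -0.64 (SE 0.21). The transglutaminase tgm1l4 was under 16 on the 3 atg5 arrays, and its difference with weak signals set to 16 was -0.76. The summed intensity of the list ran from 30800 to 32300 on the atg5 arrays and from 31500 to 39700 on the controls.

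Liver and yolk genes were lower on average and uneven between the atg5 arrays. Of 43 genes 37 were lower and 6 higher, with a median of -0.60, and 0 (0%, against 2.54% of all named genes) lay below all controls. The list median by array was 0.30 on atg5 1, -1.06 on atg5 2 and -1.18 on atg5 3, and from -0.43 to 0.66 on the controls. Transferrin gene tfa read 11.45 on atg5 1, 9.72 on atg5 2 and close to 10 on atg5 3, and 10.95 to 11.65 on the controls. There atg5 1 was within the controls, and the others were below them. The list median was -1.09 without atg5 1 and -0.34 without atg5 3. Of 17 exocrine pancreas genes 15 were lower and 2 higher, but 4 of the 17 reached 16 on all 8 arrays.

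Heart muscle genes followed the same split between arrays. Of 26 genes, 9 were higher and 17 lower, with a median difference of -0.17. The list median by array was 0.56 on atg5 1, -0.63 on atg5 2 and -0.36 on atg5 3, and from -0.38 to 0.42 on the controls. The regulatory light chain myl7 read 9.84, 6.74 and 7.69 on the atg5 arrays and 6.63 to 8.43 on the controls. The light chain cmlc1 read 10.70, 7.48 and 8.51 against 7.47 to 9.53, and troponin T gene tnnt2a read 9.03, 6.36 and 7.30 against 6.88 to 8.07. In all 3 genes atg5 1 was the highest of the 8 arrays, and atg5 2 was at the lower end of the controls or below them. The other morphant arrays numbered 1 also read high, with myl7 at 9.59 on becn1 1 and 10.06 on atg7 1, against 6.91 to 7.14 on the becn1 and atg7 arrays numbered 2 and 3. The list medians were 0.37 on becn1 1 and 0.65 on atg7 1 and from -0.69 to -0.32 on those other arrays. Uninjected 1, at 0.42, was the highest of the controls, but its myl7 level of 6.63 was the lowest of the 5 controls. What the arrays numbered 1 share was not tested. The differences were 0.79 (SE 0.79) for myl7, 0.53 (SE 0.86) for cmlc1 and 0.31 (SE 0.69) for tnnt2a. The list median was -0.42 without atg5 1 and 0.03 without atg5 2, so its sign rests on single arrays. The summed intensity of the list ran from 7560 to 12600 on the atg5 arrays and from 8490 to 10300 on the controls. In the list 1 gene (3.85%, against 2.54% of all named genes) had all atg5 arrays below the controls, the myosin light chain myl10. It read 7.61, 7.75 and 7.73 against 7.86 to 9.12, a difference of -0.79 (SE 0.26, adjusted p = 0.614). Unlike myl7, myl10 was lowest on atg5 1 and highest on uninjected 1, where smyhc1 of trunk muscle was also highest. Which muscle its signal comes from was not tested.

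Of 30 heart transcription factors and related regulators, 14 were higher and 16 lower, with a median of -0.01. The muscle transcription factor mef2aa read 6.14, 6.22 and 6.14 on the atg5 arrays, 7.39, 6.55 and 7.53 on the uninjected arrays, and 6.42 and 6.73 on the control morpholino arrays. All atg5 arrays were below the controls, by -0.75 (SE 0.26, adjusted p = 0.614). The difference was -0.98 from uninjected and -0.40 from control morpholino hearts. The related mef2d differed by -0.48 (SE 0.26), with overlap. The flow-responsive factor klf2a read 6.54, 5.95 and 6.05 against 6.40 to 6.79, a difference of -0.40 (SE 0.19). Its relative klf2b differed by -0.24 (SE 0.25), by -0.47 from uninjected and by 0.09 from control morpholino hearts. The heart field factor hand2 differed by 0.33 (SE 0.33), gata5 by 0.16 (SE 0.36) and irx4a by 0.40 (SE 0.30), each with overlap.

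Of 23 genes of the atrioventricular canal and valves, 8 were higher and 15 lower, with a median of -0.13. The median was -0.11 against uninjected and 0.07 against control morpholino hearts, and it ran from -0.21 without atg5 1 to -0.04 without uninjected 2. The growth factor receptor erbb2, needed for heart trabeculae, read 6.74, 6.90 and 6.72 on the atg5 arrays. The uninjected arrays read 7.30, 7.30 and 7.28 and the control morpholino arrays 7.31 and 7.17. The control arrays were close together and the atg5 arrays were all below them, by -0.48 (SE 0.17, adjusted p = 0.614). The canal genes tbx2b, foxn4 and bmp4 differed by -0.13 (SE 0.19), 0.18 (SE 0.29) and -0.05 (SE 0.35). The matrix link protein gene hapln1a differed by -0.27 (SE 0.18). In these 4 genes the groups overlapped. Of 16 endothelial genes, 12 were lower and 4 higher, with a median of -0.26. Only 9 of the 16 reached 16 on all 8 arrays. Setting intensities under 16 to 16 moves differences of weak genes towards 0, and the median was then -0.04. Among the genes at or above 16 on all 8 arrays, klf2a, aplnra, erg, flt4, klf2b and kdrl were lower, by -0.40 to -0.21. In the same set tal1, plvapb and lmo2 were higher, by 0.50, 0.10 and 0.08. No gene of the list (0%, against 2.54% of all named genes) lay below all controls. In smooth muscle, 7 of 10 genes were lower and 3 higher. Among the lower ones tagln read 8.61, 7.27 and 7.86 against 8.14 to 9.49, a difference of -0.85 (SE 0.35). Below all controls lay 1 gene (10%, against 2.54% of all named genes), smtnb, by -0.53 (SE 0.20). Above them lay 1 gene (10%, against 5.16%), myl9b. It read 5.69, 4.81 and 4.69 against 4.26 to 4.68, a difference of 0.58 (SE 0.30).

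**Figure D2:**
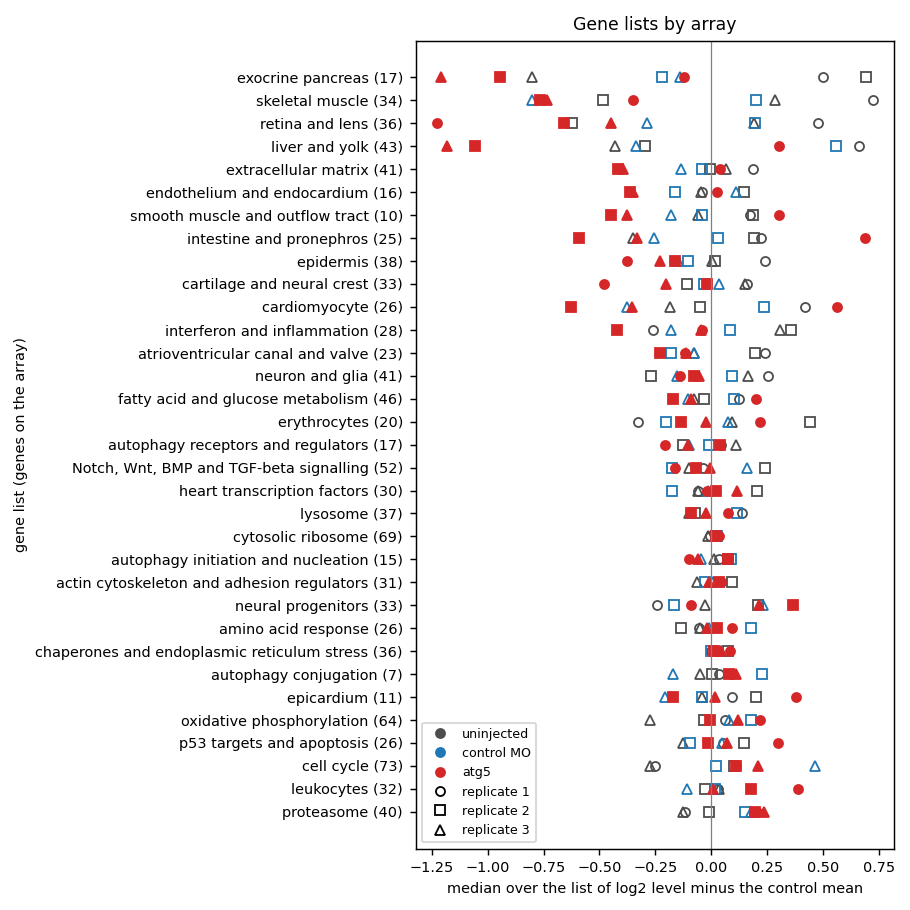
Median over each gene list of the level minus the control mean (log2, horizontal axis), for the 8 compared arrays. Filled red symbols are atg5 arrays, open grey ones uninjected and open blue ones control morpholino arrays, with the shape giving the replicate number. On atg5 1 the liver, heart muscle and intestine medians lie apart from those of atg5 2 and atg5 3, while the 3 proteasome medians lie between 0.20 and 0.24.

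Proteasome subunits were the list with the highest median difference. Of 40 genes, 35 were higher and 5 lower, with a median of 0.24. At 9 of the 40 (22.5%, against 5.16% of all named genes) all atg5 arrays lay above all controls. The list median by array was 0.21, 0.20 and 0.24 on the atg5 arrays, 0.15 and 0.18 on the control morpholino arrays, and -0.12, -0.01 and -0.13 on the uninjected arrays. The atg5 arrays were thus above every uninjected array and near the control morpholino arrays. The median difference was 0.36 from uninjected and 0.05 from control morpholino hearts. The lid subunit psmd8 read 9.91, 9.76 and 9.89 on the atg5 arrays, 9.18, 9.38 and 9.23 on the uninjected arrays, and 9.66 and 9.71 on the control morpholino arrays, a difference of 0.42 (SE 0.16, adjusted p = 0.614). The ubiquitin receptor psmd4b read 6.64, 6.62 and 6.87 against 5.89 to 6.51, a difference of 0.47 (SE 0.19). The activator subunit psme1 differed by 0.82 (SE 0.28), by 0.79 from uninjected and by 0.86 from control morpholino hearts, with atg5 3 inside the control range. The regulatory subunit psmd3 went the other way. It read 5.33, 6.32 and 6.09 against 6.09 to 8.29, a difference of -1.22 (SE 0.42).

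The median of the cell cycle list was 0.27 against uninjected hearts and -0.11 against control morpholino hearts. The oxidative phosphorylation list had medians of 0.20 and -0.03. For these lists the direction depends on which controls are used. Among cell cycle genes, the mitotic cyclin ccnb3 read 8.18, 8.34 and 8.14 against 7.17 to 8.02 in all controls, a difference of 0.59 (SE 0.22, adjusted p = 0.614). The anaphase activator cdc20 read 7.15, 7.51 and 7.37 against 6.36 to 7.01, a difference of 0.61 (SE 0.26). Among oxidative phosphorylation genes, the succinate dehydrogenase subunit sdhb lay below all controls, by -0.51 (SE 0.17), and the ATP synthase subunit atp5f1e lay above them, by 0.44 (SE 0.15). Of 64 oxidative phosphorylation genes, 3 (4.69%, against 5.16% of all named genes) lay above all controls and 2 (3.12%, against 2.54%) below. Of 73 cell cycle genes, 5 (6.85%, against 5.16%) lay above and 0 (0%, against 2.54%) below. Most of these shares are near those of all named genes.

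**Figure D3:**
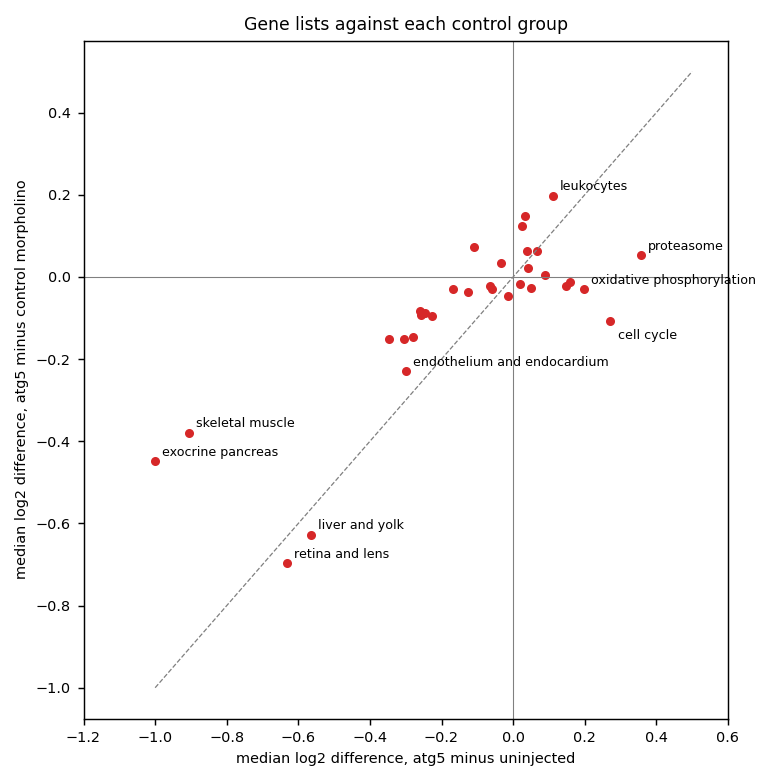
Median difference of each gene list from uninjected hearts (log2, horizontal axis) and from control morpholino hearts (log2, vertical axis). Each point is 1 list, and the dashed line marks equal values. The retina and lens list sits at -0.63 and -0.70, and the proteasome list at 0.36 and 0.05. The axes share the atg5 arrays.

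Of 32 leukocyte genes 21 were higher and 11 lower, with a median of 0.17, and 2 (6.25%) lay above all controls, a share near the 5.16% of all named genes. The list median was 0.39 on atg5 1, 0.18 on atg5 2 and 0.01 on atg5 3. Without atg5 1 it was 0.05. The gene vsir, an immune checkpoint receptor in mammals, had the smallest p of the 12 higher genes named by rank. It read 6.77, 6.28 and 6.42 on the atg5 arrays, 5.65, 5.40 and 5.59 on the uninjected arrays, and 5.49 and 5.67 on the control morpholino arrays. The 5 controls lay within a narrow range and the atg5 arrays above it, by 0.93 (SE 0.18, adjusted p = 0.514). The difference was 0.94 from uninjected and 0.91 from control morpholino hearts. The leukocyte enzyme gene mmp13a, a collagenase, read 7.65, 6.97 and 6.98 against 5.68 to 7.01, a difference of 0.85 (SE 0.32). The leukocyte marker lyz ran from 10.49 to 11.08 against 10.66 to 11.16, a difference of -0.065 (SE 0.17). Among the 11 lower genes, ccl34b.1 differed by -0.57 (SE 0.31) and cebpb by -0.48 (SE 0.26), both with overlap. The neutrophil gene mpx ran from 5.74 to 8.44 on the atg5 arrays and from 4.59 to 7.46 on the controls. Of the pan-leukocyte marker ptprc, all 8 arrays were under 16.

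Genes of the response to amino acid shortage were mixed. Of 26 genes, 17 were higher and 9 lower, with a median of 0.07, and 4 (15.4%, against 5.16% of all named genes) lay above all controls and 1 (3.85%, against 2.54%) below. The median was 0.16 against uninjected and -0.01 against control morpholino hearts, so its direction depends on the controls. The glutathione-degrading enzyme chac1, a target of this response, read 9.10, 8.82 and 8.90 against 9.19 to 9.52, a difference of -0.46 (SE 0.13, adjusted p = 0.614). The transcription factor atf5b read 8.52, 8.31 and 8.32 against 7.61 to 8.30, a difference of 0.51 (SE 0.18). The asparagine synthetase asns differed by 0.49 (SE 0.22), and atg5 2 and atg5 3 were below the highest control.

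The remaining genes named by rank come from many functions. They were taken, 12 in each direction, as those with the smallest p among genes whose atg5 arrays do not overlap the controls, so the lack of overlap and a like sign against both control groups follow from the choice. Among the higher ones, 3 take part in protein and RNA turnover or sorting. The ubiquitin ligase subunit gid8a read 6.92, 7.07 and 7.03 against 6.21 to 6.62, a difference of 0.66 (SE 0.15, adjusted p = 0.582). The deadenylase cnot8 read 10.34, 10.46 and 10.36 against 9.35 to 10.08, a difference of 0.65 (SE 0.16). The endosomal sorting adaptor stam read 8.92, 9.14 and 8.96 against 8.48 to 8.71, a difference of 0.45 (SE 0.12). Each of these 3 was also above all 5 becn1 and atg7 arrays, as were swt1 and ifngr2 among the 12 higher genes. Among the 12 lower genes, sptbn1, serpinb1l3, tgm1l4 and ppp1cbl lay below all 5. Over all probe sets 2.46% lay above and 4.1% below those arrays. Genes chosen for high or low atg5 arrays are more likely to do so, so this is no separate support.

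The dynein assembly factor dnaaf10 differed by 0.76 (SE 0.17) and the homeobox gene en1b by 0.76 (SE 0.18). For en1b the difference was 0.92 from uninjected and 0.52 from control morpholino hearts. The interferon gamma receptor subunit ifngr2 read 6.25, 6.39 and 6.25 against 5.50 to 5.77, a difference of 0.66 (SE 0.17). The small GTPase arl2 differed by 0.60 (SE 0.15), spag7 by 0.69 (SE 0.17) and zc4h2 by 0.52 (SE 0.14). Of the weaker signals, swt1 differed by 0.89 and chchd3b, a protein of the mitochondrial inner membrane, by 0.79, both with intensities under 16 set to 16. The adjusted p of the 12 higher genes ran from 0.514 to 0.614.

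Among the 12 lower genes the beta spectrin sptbn1, a protein of the membrane skeleton, had the smallest p. It read 4.47, 4.91 and 5.04 on the atg5 arrays, 6.23, 5.88 and 6.54 on the uninjected arrays, and 5.77 and 5.89 on the control morpholino arrays. The difference was -1.25 (SE 0.22, adjusted p = 0.361), a 2.38-fold lower geometric mean. The 2 other probe sets of sptbn1 differed by -0.30 and -0.32, so the probe sets disagree on the size. The clade B serpin serpinb1l3 read 5.33, 5.71 and 5.43 on the atg5 arrays, 7.39, 7.21 and 6.88 on the uninjected arrays, and 6.03 and 6.57 on the control morpholino arrays. Its difference was -1.33 (SE 0.29, adjusted p = 0.582), made up of -1.67 from uninjected and -0.81 from control morpholino hearts.

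The methyl transfer enzyme bhmt of the liver read 9.90, 9.41 and 9.09 against 10.28 to 11.03, a difference of -1.11 (SE 0.26, adjusted p = 0.582). A second, brighter probe set of bhmt overlapped the controls and differed by -0.53 (SE 0.20). The glycerol phosphate dehydrogenase gpd1c read 5.19, 5.31 and 5.51 against 6.14 to 7.0, a difference of -1.15 (SE 0.26). The clock-linked repressor bhlhe40 read 6.96, 7.36 and 7.36 against 7.67 to 8.09, a difference of -0.73 (SE 0.17). The phosphatase subunit gene ppp1cbl differed by -0.82 (SE 0.19). The sterol synthesis enzyme hmgcs1 differed by -0.49 (SE 0.13). The actin regulator eps8a differed by -0.79 with weak signals set to 16. None of these genes was called in the fit described above. The dimmer probe set of bhmt was called with the replicate number as a block (-1.21, adjusted p = 0.011) and without the arrays numbered 1 (-1.22, adjusted p = 0.0389).

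**Figure D4:**
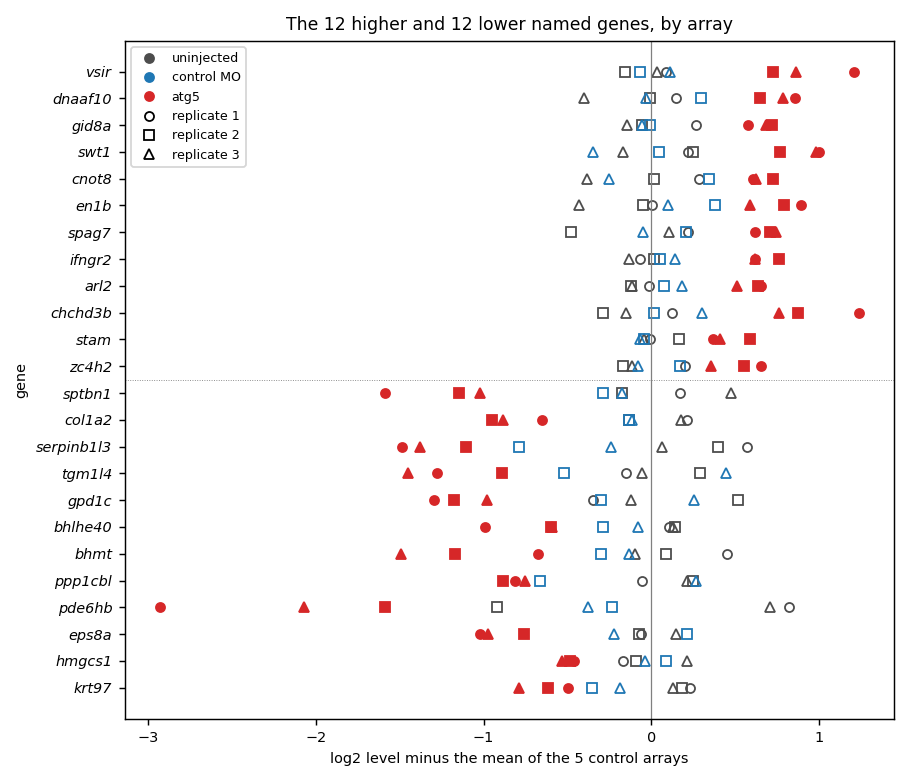
Level minus the mean of the 5 control arrays (log2, horizontal axis) for the 12 higher and 12 lower genes named by rank, on the 8 compared arrays. Filled red symbols are atg5 arrays, open grey ones uninjected and open blue ones control morpholino arrays, with the shape giving the replicate number. The red symbols do not overlap the open ones, as the choice of genes requires, and pde6hb has the widest spread.

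The direct comparison with the becn1 and atg7 arrays named few further genes. Its genes were taken, 4 in each direction by p, among those whose atg5 arrays do not overlap the becn1 and atg7 arrays. That lack of overlap thus follows from the choice. At 382 probe sets (2.46%) the atg5 arrays lay above all 5 other morphant arrays, and at 636 (4.1%) below them. The cell death gene bada read 7.21, 6.94 and 7.02 on the atg5 arrays. The becn1 arrays read 5.69, 6.05 and 6.01 and the atg7 arrays 5.05 and 6.0, a difference of 1.34 (SE 0.24, adjusted p = 0.2). The control arrays ran from 6.24 to 7.02 and overlapped the atg5 arrays. The mitochondrial inner membrane gene micos10 was higher in atg5 than in becn1 and atg7 by 0.96 (SE 0.20, adjusted p = 0.223). The isoleucine tRNA synthetase iars1, which charges its tRNA with isoleucine, read 7.63, 7.93 and 7.71 on the atg5 arrays, 8.69, 8.16 and 9.03 on the becn1 arrays, and 8.79 and 8.84 on the atg7 arrays. There the atg5 arrays were lower by -0.96 (SE 0.18, adjusted p = 0.202), and they overlapped the control range of 7.71 to 8.09. The genes tex10 and cpsf2, which act in ribosome assembly and in cleavage of messenger RNA ends, were lower by -0.88 (SE 0.16) and -0.77 (SE 0.14). The gene si:ch211-132d3.4 was lower by -0.84 (SE 0.16), although its atg5 arrays lay above all controls, by 0.39 (SE 0.16).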

How the data were processed

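The authors deposited a linear intensity for each probe set, computed with MAS5 per the submitters' processing notes. Neither version nor scaling target was stated. The number of arrays limits the precision. Leaving out 115 manufacturer controls from 15617 probe sets gave 15502, of which 10795 had 1 gene symbol, 135 several and 4572 none in the platform annotation and a current gene table. The log2 intensities of 13 arrays were quantile normalized, with no pseudocount or filter. limma 3.58.1 in R 4.3.3 (lmFit, eBayes with a mean-dependent prior, two-sided) was fitted with groups control, atg5, becn1 and atg7, and the 2 control groups were separated for the checks against each. The scripts were tested on simulated data. Named genes were the 12 per direction by p that did not overlap and reached 16, 4 per direction against becn1 and atg7, up to 4 per list, and any heart gene. Each gene of the 33 lists was taken by its brightest probe set. The members and lists were chosen with earlier results of these data known. Same-numbered samples were not taken as paired: deviations of atg5 arrays correlated at 0.121, -0.059 and 0.027 with uninjected, -0.081 and 0.049 with control morpholino, 0.228, 0.05 and 0.08 with becn1, and 0.161 and 0.11 with atg7 arrays. Alternatives covered filters, scaling, weak signals, controls, blocks and single arrays.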

Additional observations from a re-analysis of the deposited data

Results flagged for a closer look

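The endosomal sorting gene stam read 8.71 on uninjected 2 and 8.48 to 8.54 on the other 4 controls, far from them relative to the range. It was 1 of 67 genes and lists checked in the controls, and chance flags about 1 in 20. Of the 34 named probe sets checked, 4 moved one way from the control mean on every atg5 array and the other way on every becn1 and atg7 array. These were bada, micos10, tex10 and cpsf2. All 4 had been chosen for atg5 arrays that do not overlap the becn1 and atg7 arrays, so the split partly follows from the choice. The share of all probe sets with such a split was not counted. Their direct differences, atg5 minus the mean of becn1 and atg7, were 1.34, 0.96, -0.88 and -0.77. limma gave adjusted p values of 0.2, 0.223, 0.2 and 0.202, so none was called.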

How the results depend on the processing

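The count of called probe sets against the 5 controls was 0 with a filter on dim probe sets, median scaling and the deposited scale. It was 0 with a pseudocount or floor of 16, the 8 arrays alone, equal control weights, each control group alone and 1 prior variance. Leaving out any single one of the 8 compared arrays gave 0 (0 to 0). The becn1 and atg7 arrays were not left out singly there. With the replicate number as a block the count was 2, bhmt (-1.21, adjusted p = 0.011) and clcn3, which was under 16 on 6 of the 8 arrays. With all arrays numbered 1 left out it was 2, bhmt (-1.22, adjusted p = 0.0389) and 1 unnamed probe set. Against becn1 and atg7 the count ran from 0 to 2 without single arrays, and was 2 without becn1 3. Probe sets with atg5 arrays above and below the controls numbered 144 and 89 on the deposited scale, 1613 and 1102 with uninjected arrays alone, 1658 and 1285 with control morpholino arrays alone, 1538 and 1170 without arrays numbered 1, and 779 to 1320 and 469 to 955 without single arrays. Fewer arrays make a lack of overlap more common. At an unadjusted p under 0.05 the deposited scale gave 286 higher and 229 lower, and control morpholino arrays alone 281 and 193. Of 616 values of named genes under alternatives, 615 kept the sign, and the exception was the dimmer atg5 probe set (-0.007 with control morpholino arrays alone). All named genes but the atg5 probe sets were chosen for arrays that do not overlap. Leaving out arrays or using 1 control group cannot turn the sign of such genes, so for those alternatives the count tests nothing. Of 660 list medians 603 kept the sign. Between 25.3% and 35.6% of probe sets per array were under 16, which limits weak genes.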
